A study of Homo sapiens with 16 samples.

Results

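The 10 genes described here are markers of the mesenchymal state of neuroblastoma: VIM, FN1, CD44, YAP1, WWTR1, SNAI2, TWIST1, ZEB1, ZEB2 and PRRX1. They were chosen by name, as the 10 genes with these symbols among the 63187 genes of the deposited tables; the rule uses no measured value, but the list was drawn up with earlier results of these data known. The cells were SK-N-BE(2), an established line from a human neuroblastoma, sequenced as 16 RNA-seq libraries in 4 groups of 4. Besides cells labelled WT there were cells that had received HIF-2α, the oxygen-regulated transcription factor whose gene is EPAS1, by transfection in 1 of 3 forms. FL stands for full length, and the forms labelled N-CTAD and c-IDR, called NCTAD and cIDR here, are written with a deletion sign in the study design. All groups were grown at 37 °C in 21% oxygen and 5% CO2 with 10% fetal bovine serum, so the WT cells and the transfected cells shared a normoxic culture. Each replicate number from 1 to 4 is also the batch in the labels, so every batch holds 1 library of each group, and what the batches stand for is not stated. Nor do the labels name a vector, a time of harvest or a mock transfection of the WT cells, so transfection itself and the HIF-2α forms cannot be told apart against WT. The library names call the line BE2c, FL "WT" and WT "CTRL"; groups here follow the sample titles.

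Neuroblastoma cells occur in an adrenergic state, held by sympathetic lineage transcription factors, and in a mesenchymal state that resembles neural crest cells and is migratory. SNAI2, TWIST1, ZEB1, ZEB2 and PRRX1 encode transcription factors that act in epithelial-mesenchymal transition or in mesenchymal development, and the SNAI and ZEB proteins repress through E-box sequences. YAP1 and WWTR1 (the gene of TAZ) encode the coactivators that the Hippo kinases keep out of the nucleus and that act through TEAD proteins. VIM, FN1 and CD44 encode an intermediate filament protein, the matrix protein fibronectin and a receptor for hyaluronan. Low oxygen and HIF proteins have been linked to this programme in other tumours, and HIF dimers bind a short core in DNA, ACGTG or GCGTG.

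That core was looked up ahead of the members' start sites because the transfected protein binds it. Promoter sequences from RefSeq (GRCh38.p14) were at hand for 8 of the 10 genes, with 15 start sites in all, and the 250 bases before each start were searched on both strands. A core on the other strand of DNA reads CACGT or CACGC. The first core, ACGTG, stood in 18.5% of 35116 windows of all genes and in 4 of the 15 member windows. The second, GCGTG, stood in 32.2% of all windows and in 4 of the 15. Either one stood in 43.2% of all windows and in 7 of the 15, which belong to ZEB2, WWTR1, ZEB1, CD44 and YAP1. The E-box CAGGTG, a sequence bound by ZEB and SNAI proteins, stood in 17.5% of all windows and in 2 of the 15, both of ZEB1, and the wider E-box CANNTG, which includes it, in 61.8% and in 7 of the 15. A match describes these letters and is not a bound site. Some windows are not upstream of the whole gene: those of CD44, ZEB2 and PRRX1 and 1 of ZEB1 lie with 250 of 250 bases in exons of protein-coding genes in GENCODE 29, and the printed WWTR1 window with 76. The sequences given here are the whole window of YAP1, in which the core is part of CACGTG and so counts on both strands, the whole window of VIM, which holds no core, and 30-base stretches round cores of CD44, WWTR1, ZEB2 and ZEB1. They are written 5′ to 3′ on the strand of the gene, with the core in capitals.
YAP1 window, chr11:102110197-102110446, plus strand: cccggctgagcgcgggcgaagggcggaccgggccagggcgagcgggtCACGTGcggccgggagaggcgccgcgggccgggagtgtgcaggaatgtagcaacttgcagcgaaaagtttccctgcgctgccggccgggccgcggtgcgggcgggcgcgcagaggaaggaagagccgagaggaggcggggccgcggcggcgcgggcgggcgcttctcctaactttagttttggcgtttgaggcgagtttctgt
VIM window, chr10:17227991-17228240, plus strand: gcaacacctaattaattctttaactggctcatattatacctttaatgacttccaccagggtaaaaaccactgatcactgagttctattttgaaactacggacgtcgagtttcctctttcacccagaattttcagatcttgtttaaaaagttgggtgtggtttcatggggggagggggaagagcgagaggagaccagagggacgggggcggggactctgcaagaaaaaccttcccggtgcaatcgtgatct
CD44 stretch, chr11:35138944-35138973, plus strand: ggttccccgaccCACGTccctggcagcccc
WWTR1 stretch, chr3:149658180-149658209, minus strand: taaagtacccatCACGCccagggttttctg
ZEB2 stretch A, chr2:144520290-144520319, minus strand: aaacttggcgatCACGTtttcacatgatgc
ZEB2 stretch B, chr2:144520225-144520254, minus strand: aagataggtggcGCGTGtttcagggtctct
ZEB2 stretch C, chr2:144520153-144520182, minus strand: gaagaggcgtaaCACGTcagtccgtcccca
ZEB1 stretch, chr10:31318694-31318723, plus strand: gcggggggcggaCACGCgagGCGTGggact

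Libraries held 38.6 to 56.1 M (mega) counts. EPAS1, read as a check of the labels, was 13 to 28.1 counts per 1 M counts (CPM, on TMM-scaled totals) in the WT libraries and 1320 to 5850 in the transfected ones. Batch 2 stood apart over all genes. In the edgeR quasi-likelihood fit with group and batch as terms, 53.9% of the 19530 tested genes differed between batch 2 and the mean of the other batches (27.7% higher, 26.1% lower), at an adjusted p under 0.05. The summed level of 12 hypoxia genes was 860 to 1450 CPM in the batch 2 libraries and 320 to 596 in the other 12. The summed level of 16 markers of other cell types (fibroblasts, smooth muscle, Schwann cells, endothelium, leukocytes) was 80.4 to 83.2 CPM in batch 2 and 38.4 to 48.5 elsewhere, most of it LUM and DCN. Defining markers PTPRC (at most 2 counts), PECAM1 (at most 3) and SOX10 (at most 4) were at or near 0 in every library, and none of the 16 was at 0 in all. Genes of the adrenergic state differed widely in level. GATA2 (median 794 TPM, transcripts per 1 M), PHOX2A (537 TPM) and HAND2 (482 TPM) were high, whereas TH (2.44 TPM) and INSM1 (0.701 TPM) were low and SOX11 had at most 15 counts; these 6 were chosen after their values were seen. Whether the hypoxia genes or the other cell type markers take part in any batch 2 difference below was not tested.

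The members spanned a wide range of levels. By TPM, which corrects for length and so can be compared between genes, TWIST1 had a median level of 97.4 over the 16 libraries (81.1 to 108), higher than 92.2% of the tested genes. ZEB1 followed with 29 TPM (15.4 to 36.1) and VIM with 21.6 TPM (11.7 to 27.9). ZEB2 stood at 8.93 TPM (6.15 to 10.9) and SNAI2 at 7.88 TPM (2.61 to 11.3). These 5 genes were the better expressed ones of the 10, although VIM, an abundant transcript in mesenchymal cells, was above only 70.8% of the tested genes. FN1 (1.55 TPM, 0.907 to 2.63), CD44 (1.5 TPM, 0.877 to 3.39) and WWTR1 (0.578 TPM, 0.31 to 1.49) were low, and YAP1 was close to silent at 0.082 TPM (0.0215 to 0.156). TWIST1 was above ZEB1 in 16 of 16 libraries, ZEB1 above VIM in 15 and VIM above ZEB2 in 16. ZEB2 was above SNAI2 in 14 libraries and SNAI2 above FN1 in 16. FN1 was above CD44 in only 8 of 16, so the order of this pair is not resolved. CD44 was above WWTR1 in 15 libraries and WWTR1 above YAP1 in 16. By CPM, which leaves length in, VIM and ZEB2 changed places.

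**Figure D1:**
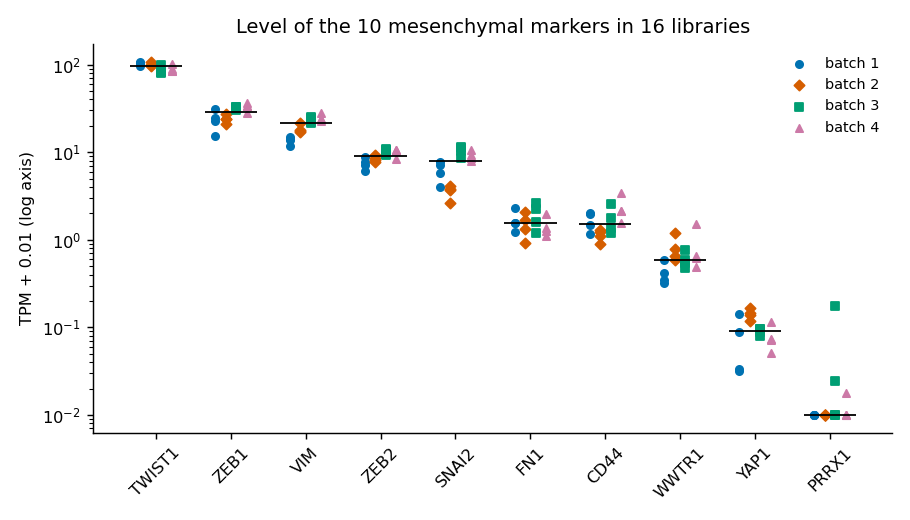
TPM of the 10 members (log axis, 0.01 added so that zeros can be drawn), with 1 point per library, coloured by batch, and a line at the median of the 16. TWIST1 lies highest at a median of 97.4 TPM, FN1 and CD44 overlap, and PRRX1 is at 0 in 13 libraries.

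PRRX1, a homeobox factor of the core circuitry of mesenchymal neuroblastoma cells, was the 1 member too low to test. It had 10 counts in the WT library of batch 3, 1 count in the FL libraries of batches 3 and 4, and 0 counts in the other 13. A count of 0 allows up to 3 counts, which is 0.0528 to 0.0812 CPM at these depths, for counting error alone. Its paralog PRRX2 reached 17 counts at most. YAP1, with 4 to 21 counts per library, passed the filter but its differences rest on few fragments.

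SNAI2, the gene of the repressor SLUG, varied most between batches. Its batch 2 levels, always in the order WT, FL, NCTAD and cIDR, were 6.09, 5.35, 3.86 and 5.33 CPM. In batch 1 the levels were 10.7, 6.75, 8.18 and 10.7 CPM. Batch 3 gave 14.3, 12.9, 12.1 and 14.9 CPM, and batch 4 gave 12.8, 13.2, 12.2 and 12.4. All 4 libraries of batch 2 were thus below all 12 others, a separation in that direction that 14.6% of all tested genes had (14.4% had the opposite one). Batch 2 was lower by 1.17 on the log2 scale (−1.17 ± 0.10 SE, 95% interval −1.39 to −0.96, edgeR adjusted p 2.22e-07), and within the single groups the difference ran from −1.46 in NCTAD to −0.97 in FL. The range of the 4 group means was 0.33 and that of the 4 batch means 1.40 on the log2 CPM scale, although within single batches groups lay as far apart as −0.66 (FL against WT in batch 1). In bulk RNA, fewer cells that express a gene and less RNA per cell cannot be told apart, here and for all other genes.

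ZEB1, a repressor of epithelial genes, also had its lowest batch mean in batch 2. Its batch 2 levels were 77.7, 70.7, 71 and 69.3 CPM in WT, FL, NCTAD and cIDR. Batch 1 had 96.9, 66.7, 83.5 and 88.6 CPM, with FL lowest of all 16 libraries. Levels in batch 3 were 102 to 107 CPM and in batch 4 they were 95 to 106 CPM, above every library of batch 2. Batch 2 was lower by 0.41 (−0.41 ± 0.06 SE, edgeR adjusted p 8.68e-05), and in each of the 4 groups (−0.48 to −0.34). With TPM values in place of counts the ZEB1 difference was −0.26 and was not called (limma adjusted p 0.0925 and 0.0945 with pseudocounts of 1 and 0.1). Its paralog ZEB2 was 24.2 to 26.7 CPM in batch 2, 19.7 to 27.9 in batch 1, 31.4 to 34.3 in batch 3 and 29.1 to 32 in batch 4. The ZEB2 levels of batches 1 and 2 overlapped and both lay below batches 3 and 4. The ZEB2 difference of batch 2 was −0.21 ± 0.07 (SE, edgeR adjusted p 0.0137). The call for ZEB2 was lost without the batch 2 library of WT (−0.20, edgeR adjusted p 0.0602), NCTAD (−0.20, 0.058) or cIDR (−0.20, 0.055), without batch 3 (−0.14, 0.163) and without batch 4 (−0.17, 0.0889). With TPM values the ZEB2 difference was −0.10 and −0.11 (limma adjusted p 0.299 with either pseudocount). Both genes, like VIM, have an antisense neighbour, and whether counting used the strand of these stranded libraries is not given in the sources used here.

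TWIST1, the most abundant member and a basic helix-loop-helix factor, had the smallest range of batch means of the 10 members, 0.35 on the log2 CPM scale. Its levels were 103 to 119 CPM in batch 1, 96 to 110 in batch 2, 84.3 to 97.2 in batch 3 and 88.2 to 94.6 in batch 4. The lowest batch mean of TWIST1 was thus in batch 3, where SNAI2, ZEB1 and ZEB2 had their highest. For each of these genes, however, the levels of batches 3 and 4 overlapped. The highest batch mean of TWIST1 was in batch 1, whereas the lowest was in batch 2 for SNAI2 and ZEB1 and in batch 1 for ZEB2. Batch 2 against the others gave 0.07 ± 0.05 (SE, edgeR adjusted p 0.305), between batch 1 above it and batches 3 and 4 below. Without batch 1 the TWIST1 difference was 0.18 and was called (edgeR adjusted p 0.0043). The range of its 4 group means was 0.03 on the log2 CPM scale, the smallest of the 10 members.

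WWTR1 and YAP1, the Hippo pathway coactivators, were low in every library. WWTR1 had 27 to 67 counts in batch 1, where its levels in WT, FL, NCTAD and cIDR were 1.4, 0.825, 0.929 and 0.731 CPM. In batch 2 they were 2.57, 1.98, 1.86 and 2.18 CPM, in batch 3 1.74, 1.68, 1.61 and 1.62, and in batch 4 1.62, 1.73, 2.24 and 1.63. All 4 libraries of batch 1 were below the 12 others, as held for 1.44% of all tested genes. Batch 2 was higher by 0.59 ± 0.14 (SE, edgeR adjusted p 0.00299) than the mean of the others, batch 1 included. Without batch 1 the WWTR1 difference fell short of a call at 0.31 (edgeR adjusted p 0.067). With TPM values it was 0.18 and 0.41 at pseudocounts of 1 and 0.1 and was not called (limma adjusted p 0.226 and 0.185). YAP1 was 0.0929 to 0.325 CPM in batch 1, 0.176 to 0.391 in batch 2, 0.236 to 0.326 in batch 3 and 0.139 to 0.248 in batch 4, with overlap throughout. Its batch 2 difference was 0.36 ± 0.28 (SE, edgeR adjusted p 0.294), and the interval from −0.24 to 0.96 leaves its direction undetermined at this depth.

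CD44, the hyaluronan receptor, was the other member whose 4 batch 2 libraries lay below all 12 others. There it had 2.12, 1.74, 1.94 and 2.25 CPM (WT, FL, NCTAD, cIDR). Batch 1 gave 2.61, 2.28, 2.86 and 3.11 CPM, batch 3 gave 3.09, 3.44, 2.75 and 3.05, and batch 4 gave 3.05, 3.17, 3.53 and 3.12. These levels correspond to 89 to 164 counts per library. The difference of batch 2 was −0.57 ± 0.11 (SE, 95% interval −0.81 to −0.33, edgeR adjusted p 0.000562), and it was negative in all 4 groups (−0.73 to −0.45).

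VIM, the filament protein that is the usual marker of mesenchymal cells, followed batch 1 more than batch 2. Its batch 1 levels were 17.1, 16.1, 19 and 19.3 CPM in WT, FL, NCTAD and cIDR, below all 12 other libraries. Batch 2 had 21, 20.7, 20.4 and 26.2 CPM, batch 3 had 30.5, 26.7, 27.9 and 31.4, and batch 4 had 27.4, 30.9, 29.9 and 30.4. Batch 2 lay between batch 1 and the other batches, and its difference from their mean was −0.18 ± 0.06 (SE, edgeR adjusted p 0.0191). That call was lost without the batch 2 library of WT (−0.17, edgeR adjusted p 0.0681), FL (−0.18, 0.0533) or NCTAD (−0.14, 0.11), without batch 3 (−0.07, 0.387) and without batch 4 (−0.05, 0.523). With TPM values the VIM difference was −0.11 (limma adjusted p 0.249 and 0.257 at pseudocounts of 1 and 0.1). FN1, fibronectin, was 4.37 to 5.39 CPM in batch 1, 5.49 to 7.68 in batch 2, 6.14 to 8.59 in batch 3 and 4.99 to 6.37 in batch 4. Its batch 2 difference of 0.25 ± 0.09 (SE, edgeR adjusted p 0.0355) depended on single libraries and batches. The FN1 call was lost without the batch 2 library of FL or NCTAD (0.20 each, edgeR adjusted p 0.16 and 0.166) or of WT (0.27, 0.0676), and without batch 1 (0.12, 0.182). Without batch 3 the FN1 difference was 0.38 and was still called. With the deposited TPM values in place of counts FN1 had the other sign, −0.15 on the log2(TPM + 0.1) scale (limma adjusted p 0.513).

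**Figure D2:**
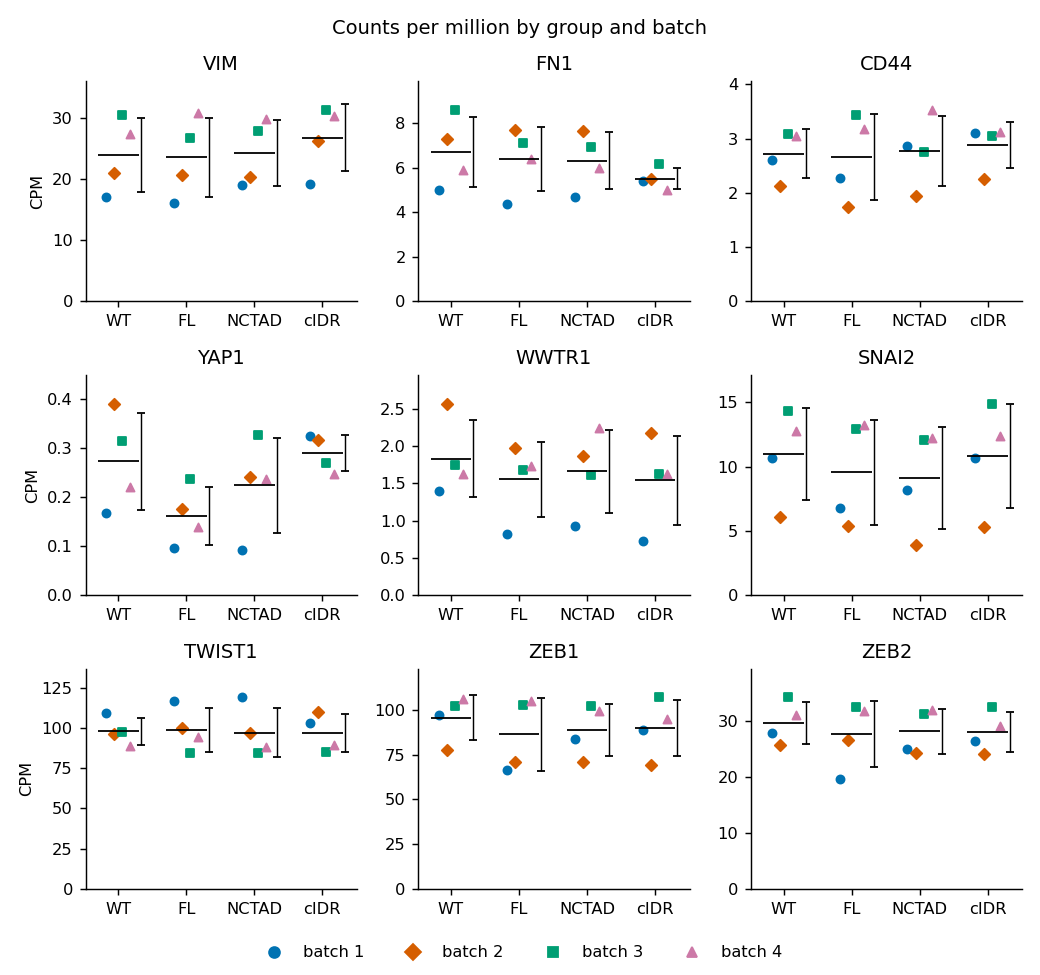
CPM of the 9 tested members by group, with 1 point per library, coloured by batch. Lines are group means and bars the SD (n = 4). The spread within a group follows the batches: batch 2 is lowest in all 4 groups for SNAI2 and CD44, and batch 1 is lowest in all 4 groups for VIM and WWTR1.

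Over the 9 tested members, batch 2 was called lower for 5 (SNAI2, CD44, ZEB1, ZEB2, VIM) and higher for 2 (WWTR1, FN1). That is 7 of 9, against 53.9% of all tested genes, with a median of −0.18 on the log2 scale against 0.035 over all genes. Any difference among the 4 batches was called for 8 of the 9, YAP1 being the exception (edgeR adjusted p 0.2), against 53.1% of all genes. Batch 2 is 1 batch, singled out because earlier results set it apart, so these p-values measure the spread of libraries within batches and not that of batches. Without the batch 2 library of WT, or of NCTAD, the count of 7 was 4, where 46.2% and 44.9% of all genes were called. It was also 4 without batch 4 (51.2% of all genes), and 2 (SNAI2 and CD44) when TPM values were tested with limma (43.1% and 42.6%). In these settings the members' share is near or below that of all genes. SNAI2 and CD44 kept their calls in 25 of 25 alternatives, and FN1 lost its own in 16.

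**Figure D3:**
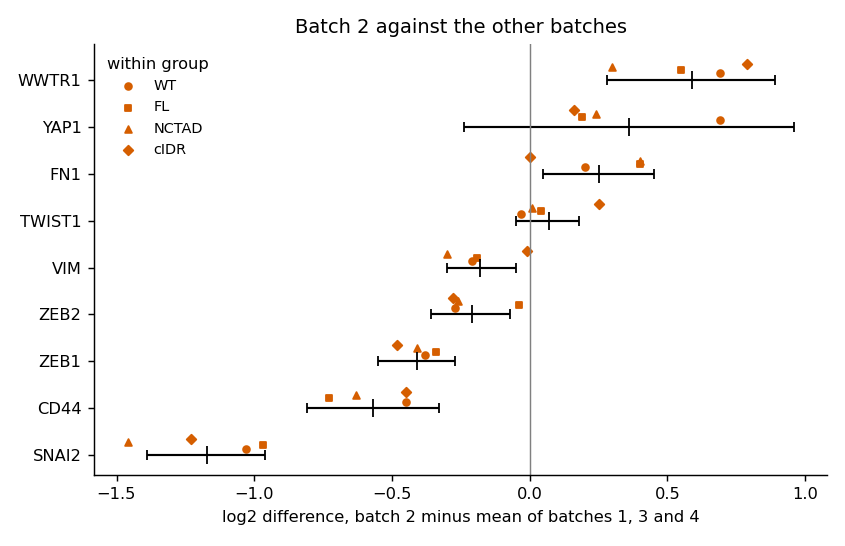
Log2 difference of batch 2 from the mean of batches 1, 3 and 4 for the 9 tested members. Black marks are edgeR estimates with 95% intervals, and orange points are the differences of log2 CPM within each group. SNAI2 lies at −1.17 and WWTR1 at 0.59; the intervals of YAP1 and TWIST1 include 0.

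The HIF-2α forms were compared with WT, and with each other, to ask what the protein and the 2 altered forms do to the transcriptome. No member was called between groups. With the batch in the model, edgeR called 0 of the 9 members for FL against WT, where 0.102% of all tested genes were called, 0 for NCTAD against WT (0.456% of all genes) and 0 for cIDR against WT (0.486%). Between the forms it also called 0 members, for NCTAD against FL (0% of all genes), cIDR against FL (0.0307%) and cIDR against NCTAD (0.00512%). The test of any difference among the 4 groups called 0 members and 0.425% of all genes. At shares this low, a count of 0 among 9 genes is near the background. DESeq2 and limma on TPM values called 0 members in these comparisons as well. At an unadjusted p under 0.05 there were 0, 1 and 2 members for FL, NCTAD and cIDR against WT, 0 and 2 for NCTAD and cIDR against FL, 1 for cIDR against NCTAD and 1 among the 4 groups. The corresponding shares of all genes were 5.11%, 5.96% and 5.45%, then 3.69% and 3.68%, then 2.15% and 4.19%.

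By adjusted p, SNAI2 came nearest in the comparison of NCTAD with WT. Within batches 1 to 4 its level differed from WT by −0.38, −0.65, −0.24 and −0.06 on the log2 CPM scale. It was lower in 4 of 4 batches, by little in batch 4. The fitted difference was −0.32 ± 0.12 (SE, 95% interval −0.57 to −0.08, unadjusted p 0.0135, edgeR adjusted p 0.603), and the adjusted p was 0.149 to 1 over the alternatives. SNAI2 was also higher in cIDR than in NCTAD in 4 of 4 batches, by 0.28 ± 0.12 (SE, edgeR adjusted p 1). For FL and cIDR against WT its differences were −0.22 ± 0.11 and −0.04 ± 0.11 (SE). The SNAI2 value in FL was −0.11 without the FL library of batch 1. These comparisons share the WT libraries or the NCTAD libraries.

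VIM in cIDR exceeded VIM in WT by 0.18, 0.32, 0.04 and 0.15 within batches 1 to 4. The fitted difference from WT was 0.17 ± 0.07 (SE, 95% interval 0.02 to 0.32, unadjusted edgeR p 0.0297) and did not pass after adjustment. Against FL it was 0.20 ± 0.07 (SE, unadjusted edgeR p 0.0131, edgeR adjusted p 1), higher in 3 of 4 batches. That unadjusted p was the smallest of any member in a comparison between groups. FN1 was lower in cIDR than in WT in batches 2, 3 and 4 (−0.40, −0.48 and −0.24) and higher in batch 1 (0.10), with a fitted difference of −0.26 ± 0.12 (SE, edgeR adjusted p 0.91). VIM and FN1, which are often read together as mesenchymal markers, thus had opposite signs in cIDR, and neither was called.

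For the other members the intervals bound what these libraries could show. TWIST1 differed from WT by 0.01 ± 0.07, −0.02 ± 0.07 and −0.02 ± 0.07 (SE) for FL, NCTAD and cIDR, with 95% intervals from −0.16 to 0.15. ZEB1 differed by −0.16 ± 0.08, −0.11 ± 0.08 and −0.09 ± 0.08, and ZEB2 by −0.11 ± 0.08, −0.08 ± 0.08 and −0.09 ± 0.08, in the same order. In cIDR, ZEB2 was below WT by a small amount in 4 of 4 batches (−0.08, −0.09, −0.08 and −0.1). The share of all genes with such agreement over the batches was not computed. The ZEB1 and ZEB2 values in FL rest in large part on batch 1, where FL differed from WT by −0.54 and −0.50, while the other batches lay between −0.14 and 0.06. CD44 differed by −0.05 ± 0.13, 0.01 ± 0.13 and 0.09 ± 0.13. The fitted WWTR1 differences were below 0 in all 3 forms without passing the test (−0.28 ± 0.18, −0.18 ± 0.18 and −0.31 ± 0.18). The widest gaps were again in batch 1 (−0.73, −0.57 and −0.90). In batch 4, WWTR1 was above WT in FL and NCTAD (0.09 and 0.45) and level with WT in cIDR. YAP1, at 4 to 21 counts, was lower in FL than in WT in 4 of 4 batches (−0.74 ± 0.37 SE, edgeR adjusted p 0.92) and higher in cIDR than in FL in 4 of 4 (0.87 ± 0.37, adjusted p 1). The medians over the 9 members were −0.11, −0.08 and −0.04 for FL, NCTAD and cIDR against WT, against 0.011, 0.016 and 0.008 over all genes.

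**Figure D4:**
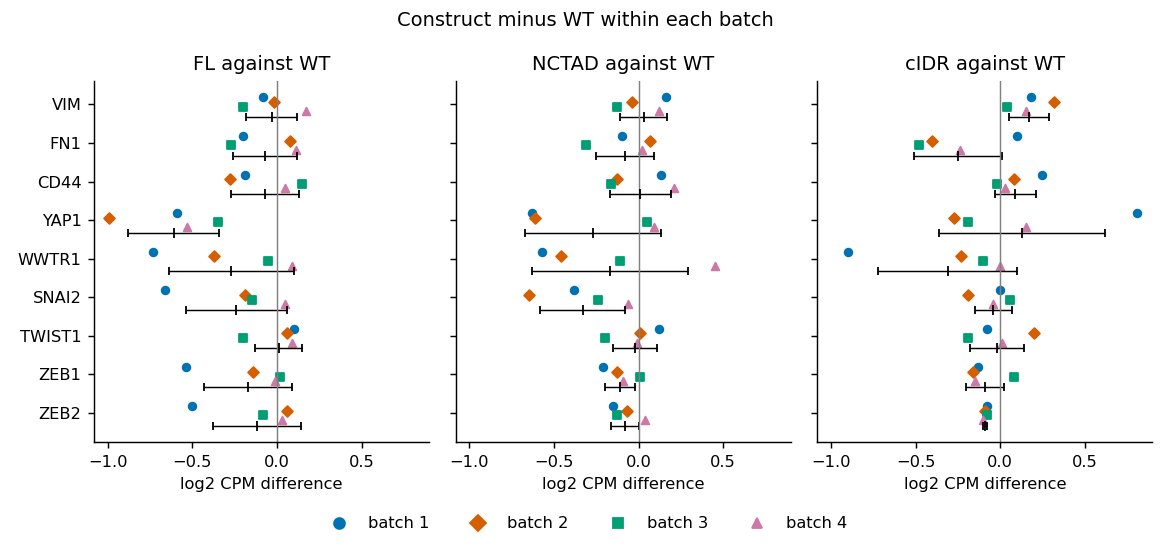
Log2 CPM difference between each HIF-2α form and WT of that batch, for the 9 tested members, with 1 point per batch. Black bars are the mean and SD of the 4 batches. NCTAD values of SNAI2, FL values of YAP1 and cIDR values of ZEB2 are below 0 in 4 of 4 batches. The cIDR values of VIM are above 0 in 4 of 4, and batch 1 gives the lowest values of WWTR1.

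The wider mesenchymal programme was partly absent from these cells. Of 48 other mesenchymal state genes 32 were expressed enough to test. Some regulators of that state, such as RUNX1 (at most 6 counts), RUNX2 (at most 3) and FOSL1 (at most 9), were near 0 in every library. Other regulators on the list were expressed, among them ID1 (median 122 TPM), ZNF217 (14.5 TPM), SNAI1 (9.23 TPM), FOSL2 (7.48 TPM) and SOX9 (5.01 TPM). The surface and matrix genes CAV1 (at most 2 counts), TNC (at most 1) and COL1A2 (at most 4) were also near 0. Abundant genes of the list included S100A6 (median 876 TPM), LGALS1 (367 TPM), ANXA2 (364 TPM) and THY1 (345 TPM), above every one of the 10 members. Of the 32 tested genes 0 were called in any comparison between groups. In batch 2, 16 of the 32 were called higher and 6 lower, against 27.7% and 26.1% of all tested genes, with a median of 0.25 against −0.18 for the members and 0.035 over all genes.

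The genes called higher in batch 2 included COL1A1, a fibrillar collagen chain (1.31 ± 0.11 SE, 5.7 against 2.3 CPM), TGFBR2, a TGF-β receptor (0.99 ± 0.14, 3.3 against 1.68 CPM), and PDGFRB (0.73 ± 0.05, 127 against 77.9 CPM). Those called lower included ID1, a target of BMP signalling (−1.58 ± 0.04, 26.7 against 80 CPM), EGFR (−0.96 ± 0.08, 106 against 209 CPM) and TIMP1, an inhibitor of metalloproteinases (−0.62 ± 0.07, 23.5 against 36.4 CPM). Mesenchymal genes therefore did not move in 1 direction in batch 2, and SNAI1, the paralog of SNAI2, was not called (0.17 ± 0.10, edgeR adjusted p 0.166).

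Partners and paralogs of the members were tested in 17 of 21 cases, and the share called in batch 2 was near the 53.9% of all genes. TWIST2 had 0 counts in every library, and LATS2, a Hippo kinase, had at most 1 count. In batch 2, 2 were called higher, TEAD2 (1.42 ± 0.22 SE) and TEAD3 (1.06 ± 0.07), and 7 lower, among them TEAD1 (−0.37 ± 0.09), NF2 (−0.42 ± 0.04), LATS1 (−0.29 ± 0.08) and CTBP1 (−0.35 ± 0.05), a corepressor that binds ZEB proteins. TEAD1, at a median of 35.2 TPM, was the most abundant of the TEAD genes, with TEAD3 at 3.06, TEAD2 at 0.552 and TEAD4 at 0.125 TPM. The E-proteins TCF3, TCF4 and TCF12, which pair with TWIST1, had differences of 0.09 ± 0.04, 0.08 ± 0.04 and 0.03 ± 0.07 and were not called.

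Targets of YAP and TAZ ranged from near 0 to well expressed. CCN1 had at most 6 counts, CCN2 at most 24 and ANKRD1 at most 7, whereas NT5E (median 36.7 TPM), FJX1 (22.9 TPM), RBMS3 (18.2 TPM) and DLC1 (15.6 TPM) were expressed in every library. Of 24 targets 15 were tested, and in batch 2, 4 were called higher and 5 lower, a share near the 53.9% of all genes. AJUBA, which encodes a LIM protein that binds LATS kinases, was higher by 2.68 ± 0.10 (SE, 9.65 against 1.52 CPM), and F3, tissue factor, by 0.77 ± 0.15. IGFBP3 (−1.55 ± 0.17) and FJX1 (−0.78 ± 0.07) were lower. Among 12 genes of adhesion change 8 were tested. CDH2, N-cadherin, was lower in batch 2 (−0.48 ± 0.04 SE, 145 against 203 CPM) and ITGB1 too (−0.17 ± 0.05), while SDC4 (0.67 ± 0.05) and ITGB3 (0.62 ± 0.20) were higher, and CDH1, E-cadherin, had at most 6 counts. Partners, targets and adhesion genes had 0 calls in every comparison between groups.

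The adrenergic genes, the counterpart of the mesenchymal state, were called in both directions in batch 2: 12 higher and 13 lower of 27, where all tested genes were also called in both directions (27.7% higher, 26.1% lower). INSM1 (3.19 ± 0.10 SE) and TH, the first enzyme of catecholamine synthesis (2.15 ± 0.12), were higher, and TBX2 (−0.86 ± 0.05) and GATA3 (−0.80 ± 0.05) lower. Of the 27, 3 rose in NCTAD against WT, where 0.456% of all genes were called: TH by 1.27 ± 0.17 (SE, edgeR adjusted p 0.0022), DBH by 0.61 ± 0.07 (0.00035) and DDC by 0.32 ± 0.05 (0.00336). In cIDR 2 rose (0.486% of all genes were called), TH by 1.06 ± 0.17 (edgeR adjusted p 0.00953) and DBH by 0.51 ± 0.07 (0.00131). In FL 0 of the 27 were called (0.102% of all genes), with TH at 0.83 ± 0.17 (edgeR adjusted p 0.121) and DBH at 0.36 ± 0.07 (0.0681). Of the 12 hypoxia genes 10 were called higher in batch 2 (median 1.38), with 6 called higher in NCTAD, 7 in cIDR and 0 in FL against WT, against the same shares of all genes. Their median difference in FL was 0.35. For example VEGFA rose by 1.05 ± 0.11 in NCTAD (edgeR adjusted p 0.00035). Of the other cell type markers 7 of 12 were higher in batch 2 and 1 lower, LUM by 1.45 ± 0.05 (47 against 17.3 CPM), and VWF, an endothelial gene, rose in cIDR against WT by 1.65 ± 0.34 (edgeR adjusted p 0.0439, 0.703 against 0.274 CPM). Without the replicate block 0 genes of these 3 lists were called between groups.

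**Figure D5:**
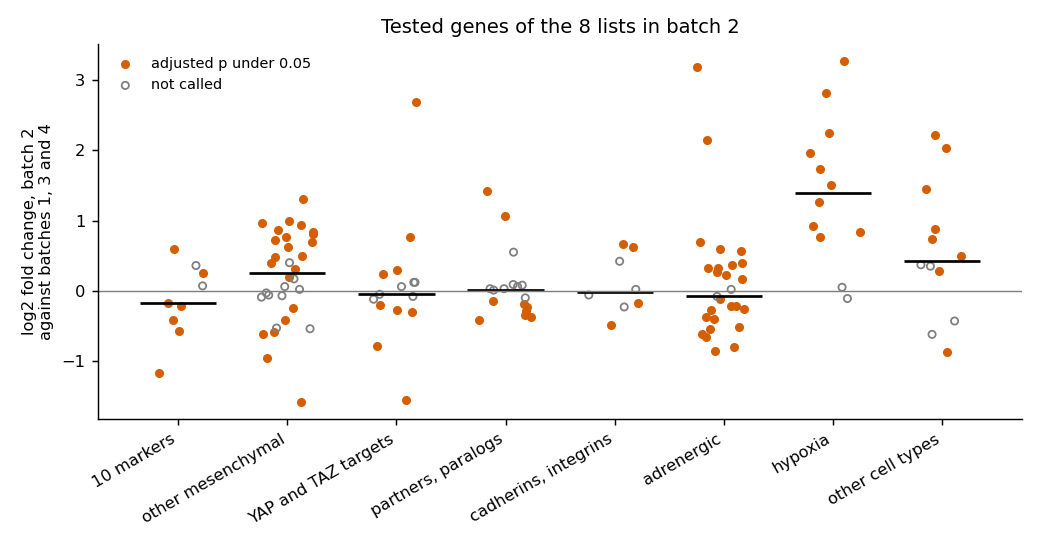
Log2 fold change of batch 2 against the other batches for the tested genes of 8 lists, with 1 point per gene and a line at the median of each list. Filled points have an edgeR adjusted p under 0.05. The members have a median of −0.18, the other mesenchymal genes of 0.25 and the hypoxia genes of 1.38.

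Genes with the most similar profile over the 16 libraries were looked up for the members that were called. For SNAI2 they were EDNRA, the endothelin A receptor (r = 0.984), MSX2, a homeobox gene (r = 0.98), and SLC7A2 (r = 0.973), out of 12373 genes with a mean log2 CPM of at least 1. EDNRA was also the closest after each batch mean was subtracted (r = 0.95). ZEB1 was closest to EML4 in both forms (r = 0.981 and 0.959), and ZEB2 to CACNA2D1 (r = 0.972) or, within batches, OSBPL11 (r = 0.969). TWIST1 was closest to BASP1 (r = 0.952), CD44 to MIOS (0.949), VIM to NGFR (0.923), WWTR1 to LRCH2 (0.913) and FN1 to CERT1 (0.871). The libraries share batch and depth, and these values are a description of them.

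In the annotation of GENCODE 29 (GRCh38) the members lie on several chromosomes. VIM is at chr10:17228259-17237593 and ZEB1 at chr10:31318495-31529814, both on the plus strand. CD44 (chr11:35138870-35232402) and YAP1 (chr11:102110461-102233423) share the plus strand of chromosome 11. FN1 (chr2:215360440-215436172) and ZEB2 (chr2:144364364-144524583) are on the minus strand of chromosome 2. WWTR1 is at chr3:149517235-149736714 and TWIST1 at chr7:19020991-19117672, on the minus strand, and PRRX1 at chr1:170662728-170739419 on the plus strand. The counts are summed over whole genes, so no exon or isoform is resolved.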

How the data were processed

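Stranded mRNA libraries with poly(A) selection came from about 250 ng of total RNA and 13 PCR cycles, per the labels' protocols. The authors deposited estimated counts per gene, per the submitters' processing notes made with tools that include fastp, STAR, Salmon and featureCounts on GRCh38; versions and roles are not given in the sources used here. The authors also deposited TPM values, which are scaled to length and to the same sum per library. The labels do not say whether replicates were separate cultures, so p-values measure the spread between these samples, which may be technical.

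Estimated counts (15.5% not whole) were rounded, filtered with filterByExpr by group to 19530 of 63187 genes, scaled by TMM and fitted in edgeR 4.0.16 (R 4.3.3; quasi-likelihood test) in 1 model over 16 libraries with group and batch, a replicate block, as terms. Adjusted p-values are Benjamini-Hochberg over all tested genes, threshold 0.05. The SE is the log2 fold change divided by the root of F. CPM use TMM-scaled totals, and log2 CPM a prior count of 2. The same-numbered libraries share a batch by label: their deviations from group means had a mean r of 0.308 (0.0674 to 0.712), against −0.0945 otherwise. No replicates were copies (chi-square per degree of freedom at least 6.89). The fit was tested on simulated data.

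All 10 members are named, and of each other list the called genes with the largest rise or fall, up to 4 each; other list genes were named for their level after their values were seen. Members and lists were chosen with earlier results of these data known. Alternatives were DESeq2 1.42.0, its size factors, no or stricter filters (10 counts), 8 libraries only, limma 3.58.1 on log2 TPM, no replicate block, and libraries or batches left out. Figures used matplotlib 3.10.9 in Python 3.11.15.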

Additional observations from a re-analysis of the deposited data

Results flagged for a closer look

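In 2 of 40 combinations of a member and a group, 1 library lay far from the other 3 of its group, by the ratio of its gap to the whole range. Chance gives about 1 in 20 for normally distributed values. PRRX1 in NCTAD and in cIDR, at 0 in every library, could not be flagged. CD44 in cIDR was 2.25 CPM in batch 2, and the nearest of the other libraries was at 3.05 CPM, a gap of 0.92 of the range. PRRX1 in WT was 0.241 CPM in batch 3 (10 counts) with the other 3 libraries at 0. Any single value beside zeros gives a ratio of 1, so the rate of 1 in 20 does not apply to PRRX1.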

How the results depend on the processing

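All 7 comparisons between groups gave 0 members called under every alternative run, including the fit with no replicate block (0 members) and with batch 2 left out. The smallest adjusted p of a member over the alternatives was 0.149 (NCTAD against WT). Without the replicate block the calls over all genes were 2, 5 and 2 for FL, NCTAD and cIDR against WT, 0 between the forms and 2 among the 4 groups, against 20, 89, 95, 0, 6, 1 and 83 with it, so a count of 0 members is a weaker statement there. In these comparisons 2 to 5 of the 9 members changed sign under at least 1 alternative, always without a call.

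For batch 2 the count of 7 called members was 2 with limma and a TPM pseudocount of 1 (43.1% of all genes), 2 with a pseudocount of 0.1 (42.6%) and 4 without batch 4 (51.2%), and leaving out 1 library at a time gave 4 to 7. The count of 8 for any batch difference was 5 with the pseudocount of 1 (38.7% of all genes) and 5 with that of 0.1 (38.1%). FN1 reversed to −0.10 with log2(TPM + 1) and −0.15 with log2(TPM + 0.1). The cause was not tested. Without the low-count filter 28.6% of all genes were called in batch 2 and their median was 0.109, with more low genes tested. Depth limits YAP1 (4 to 21 counts) and PRRX1 most.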
